A study of Mus musculus with 12 samples.

Results

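The inflammatory mRNAs of the mouse oviduct 24 h after the high dose of lipopolysaccharide were compared with those of control oviducts, across all endogenous genes of an nCounter inflammation panel. The comparison takes 8 of the 12 mice of the study, 4 control and 4 high-dose mice, and 179 of the 185 endogenous probes, the other 6 being reference genes. All were CD1 females, an outbred stock, aged 6 to 8 weeks. They were injected intraperitoneally on the day of estrus with 100 µL of phosphate-buffered saline that held either 0 µg (control) or 10 µg (high dose) of lipopolysaccharide from E. coli serotype 055:B5. A low-dose group of 4 mice received 2 µg and entered the fit only to share the estimate of spread. RNA came from oviducts, a tissue of epithelium, stroma, muscle and vessels, and 0 of the 6 oviduct epithelium genes listed as a check of the tissue are on the panel. No marker check of the tissue label was therefore possible.

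Lipopolysaccharide, a component of the outer membrane of Gram-negative bacteria, is recognised by Toll-like receptor 4 with its co-receptor MD-2, encoded by Ly96. The receptor signals through MYD88 to NF-kB and MAP kinases, and through a separate adaptor to type I interferon. Target genes include chemokines, small proteins that draw leukocytes along a gradient, cytokines such as tumour necrosis factor, and complement components, which tag microbes and recruit phagocytes. In the oviduct these responses take place at the site of fertilisation and early embryo transport.

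A scaled count is a barcode count divided by the lane's reference-gene scale. Of 179 genes, 165 lay above the negative controls in enough lanes to be tested and 14 did not, among them Ifng and Ifnb1. At the high dose 37 genes rose and 0 fell (edgeR's quasi-likelihood test, adjusted p under 0.05), so that 22.4% of the genes tested were called. At an unadjusted p under 0.05 the counts were 53 higher and 0 lower. The groups were separate, with all high-dose mice above all controls, for 42 of the 165 genes (25.5%), and with all below for 1, Gnaq (0.606%). Of the 37 called genes 34 were among the 42, the exceptions being Cxcl5, Cxcl2 and Nox1. The fitted fold changes of the called genes ran from 1.34-fold to 42.2-fold. With Il8rb, Ccr7 and Cxcl2, whose control lanes all lay under the detection limit, set at their bounds, 12 rose by 4-fold or more and 7 by 8-fold or more. The split of higher against lower calls depended on the scale: it was 34 (20.6% of the genes tested) to 23 (13.9%) with TMM, 34 to 25 with DESeq2 size factors and 30 to 62 with total counts. With positive controls as the scale it was 38 to 0, and with 4 reference genes 36 to 0. The median log2 fold change of all tested genes was 0.24 on the reference-gene scale, -0.01 with TMM and -0.34 with total counts, so that small differences below are relative to that shift.

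Endogenous counts totalled 98258 to 126058 in control lanes and 128258 to 196878 in high-dose lanes. The called genes held 16.6% ± 4.27 of them in the 4 controls and 42.5% ± 1.54 in the 4 high-dose mice (mean ± SD). They were picked as higher in these same mice, so a larger share follows from the choice. Without C3 and C1s the called genes held 5.49% ± 0.60 and 13.0% ± 1.24. The counts outside the called genes were 97243 ± 9443 and 94978 ± 14406. C3 alone took 5.71% to 13.4% of control counts and 20.1% to 24.6% of high-dose counts. The scanner read 62.3% to 90.2% of its fields of view in control lanes, under 75% in mice 2 and 4, and 78.7% to 85.5% in high-dose lanes.

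**Figure D1:**
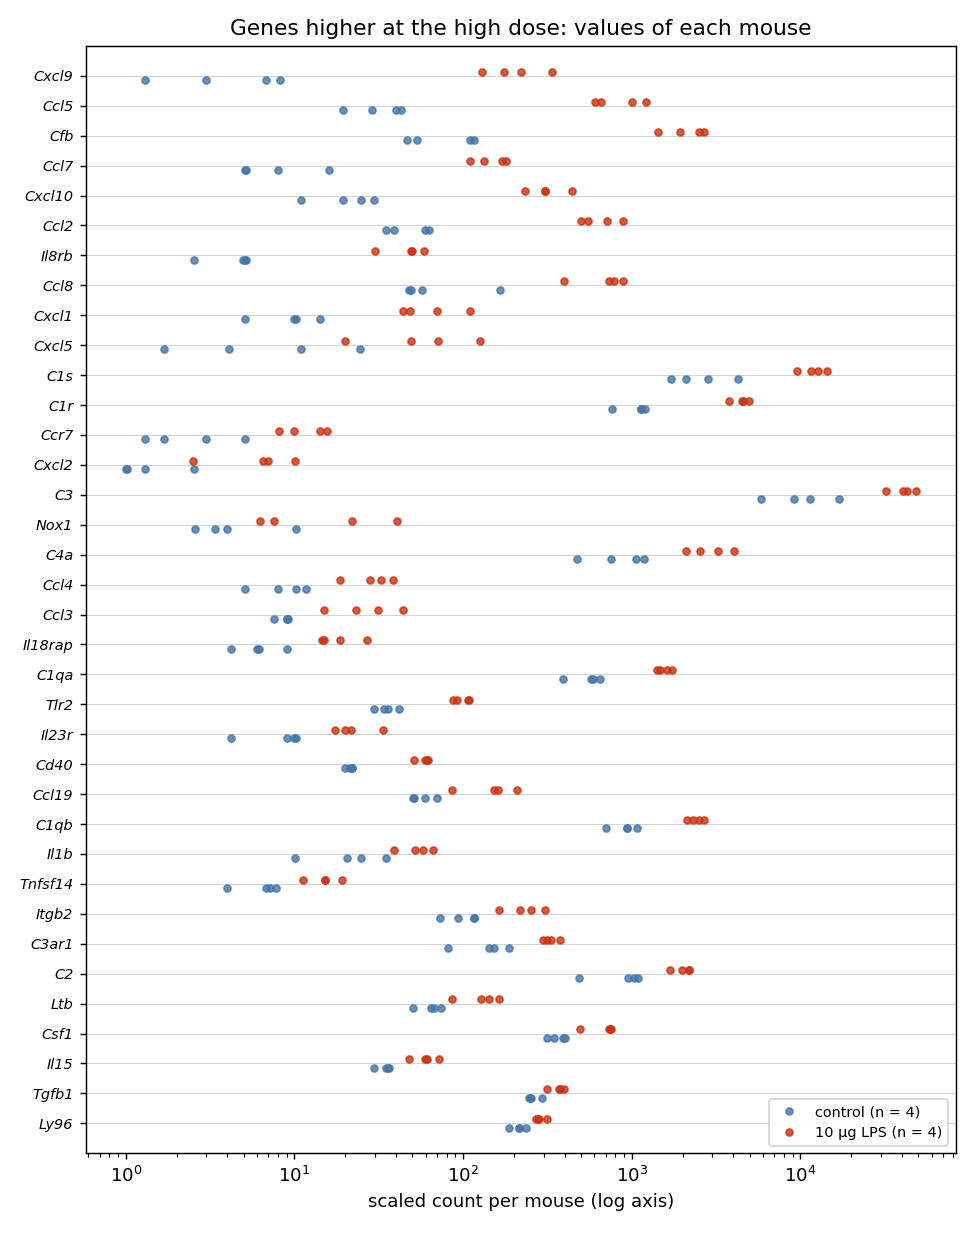
Scaled counts (log axis) of 36 called genes, 1 point per mouse, with 4 control and 4 high-dose mice for each gene. The genes run from Cxcl9, with no control mouse over 8.18 and no high-dose mouse under 129, to Ly96, where the groups are separate but close.

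The upstream sequences of the 4 called genes with the largest fold change that have a promoter in the RefSeq tables are shown first, as these are the strongest responses with a known start. Each runs 5′ to 3′ over the 250 bases before the transcript start on GRCm38.p6. They lie at chr5:92328080-92328329 (minus strand) for Cxcl9, chr5:92348890-92349139 (minus) for Cxcl10, chr1:74153744-74153993 (plus) for Il8rb and chr11:82114935-82115184 (plus) for Ccl8. Capitals mark matches, on either strand, to the NF-kB-type motif (GGGA and TTCC with any 2 bases between them), the interferon response element type (GAAA and GAAA with any 2 bases between them) and the GAS-type (TTCNNNGAA).
Cxcl9: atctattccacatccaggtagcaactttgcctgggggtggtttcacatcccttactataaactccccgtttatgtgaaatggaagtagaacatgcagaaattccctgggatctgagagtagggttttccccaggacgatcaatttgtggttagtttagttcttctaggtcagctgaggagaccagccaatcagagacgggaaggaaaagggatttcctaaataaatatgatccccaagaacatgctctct
Cxcl10: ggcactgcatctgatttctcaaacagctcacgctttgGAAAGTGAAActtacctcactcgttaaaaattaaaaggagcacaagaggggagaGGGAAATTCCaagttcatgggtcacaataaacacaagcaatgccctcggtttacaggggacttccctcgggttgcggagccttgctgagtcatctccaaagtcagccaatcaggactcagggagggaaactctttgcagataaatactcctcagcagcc
Il8rb: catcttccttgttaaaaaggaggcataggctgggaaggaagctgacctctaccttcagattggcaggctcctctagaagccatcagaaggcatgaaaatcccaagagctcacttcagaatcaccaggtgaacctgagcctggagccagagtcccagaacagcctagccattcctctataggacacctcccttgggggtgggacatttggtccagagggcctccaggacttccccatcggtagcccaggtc
Ccl8: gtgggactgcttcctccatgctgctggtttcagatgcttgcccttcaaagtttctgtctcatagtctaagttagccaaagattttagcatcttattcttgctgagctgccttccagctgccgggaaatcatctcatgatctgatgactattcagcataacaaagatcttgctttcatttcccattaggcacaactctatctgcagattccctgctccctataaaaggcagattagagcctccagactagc
Of these, Cxcl10 alone held matches, to the NF-kB-type and to the interferon response element type.

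Among 22 called genes with a promoter in the tables, 5 held the NF-kB-type motif (22.7%), against 5 of 94 tested genes that did not pass (5.32%) and 368 of 27018 genes in all (1.36%). The interferon response element type stood in 2 of the 22 (9.09%), Ccl19 and Cxcl10, against 5 of the 94 (5.32%) and 3.46% of all genes. The GAS-type stood in 1 of the 22 (4.55%), Ltb, against 14 of the 94 (14.9%) and 8.13% of all genes. The stretches around the NF-kB-type matches of the other 4 genes are given to show how alike they are, and were chosen after the matches were seen. They lie at chr5:90891149-90891209 (plus) for Cxcl1, chr5:90903777-90903837 (plus) for Cxcl2, chr17:35194395-35194454 (plus) for Ltb and chr3:107760589-107760648 (minus) for Csf1.
Cxcl1: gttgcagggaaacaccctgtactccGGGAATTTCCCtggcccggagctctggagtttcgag
Cxcl2: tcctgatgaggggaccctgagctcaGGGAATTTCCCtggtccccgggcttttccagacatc
Ltb: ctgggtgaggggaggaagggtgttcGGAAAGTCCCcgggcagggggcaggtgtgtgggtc
Csf1: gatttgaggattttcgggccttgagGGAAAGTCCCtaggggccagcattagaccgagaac
Cxcl1 and Cxcl2, neighbouring genes, share the same run of capitals, in which 2 overlapping matches are read on opposite strands. Ltb and Csf1 share another. A match describes the letters only.

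Of the 18 chemokine ligands tested 12 rose, against 22.4% of all genes tested. The largest fold change of all 37 called genes was that of Cxcl9. Cxcl9, an interferon-gamma-induced ligand of CXCR3 on activated T cells, had scaled counts of 6.75, 1.29, 8.18 and 2.99 in control mice 1 to 4 and of 129, 220.1, 175 and 335 in high-dose mice 1 to 4. The control values lay at the limit of detection, with 2 of 4 lanes above it, and every high-dose mouse was far above. Its log2 fold change was 5.40 ± 0.94 (SE, adjusted p = 0.00177). Cxcl10, another CXCR3 ligand, was measured at 10.97, 29.8, 19.4 and 24.9 in controls and 305, 232, 308 and 439.5 at the high dose. The groups were an order of magnitude apart, with a log2 fold change of 3.92 ± 0.45 (adjusted p = 0.000195). The interferons themselves were at or near background: raw Ifng counts were 1 to 3 in controls and 1 to 8 at the high dose, raw Ifnb1 counts were 2 to 4 and 4 to 5, and Ifna1 had a log2 fold change of 0.35 ± 0.48 (adjusted p = 0.687).

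Of the 12 CC chemokine ligands tested 7 rose (58.3%, against 22.4% of all genes tested). The median log2 fold change was 1.55 for the list, against 0.24 over all genes. Ccl5, a leukocyte attractant made by T cells and other cells, went from 19.4, 40.1, 43.0 and 28.9 to 604, 1002, 1210.2 and 655, a log2 fold change of 4.73 ± 0.91 (adjusted p = 0.00259). The monocyte attractants Ccl2, Ccl7 and Ccl8 rose by 13.5-fold, 16.5-fold and 8.7-fold. Ccl2 ranged from 34.9 to 62.4 in controls and from 497 to 885 at the high dose. Ccl7 ranged from 5.11 to 16.0 and from 109 to 179. With 2 of 4 control lanes above the detection limit, its fold change rests on control values near that limit. For Ccl8, control mouse 1 stood at 165, the other controls at 47.9 to 56.9, and the high-dose mice at 396 to 888, so that the fold change was 13.6 without that control. The macrophage inflammatory proteins Ccl3 and Ccl4 rose by 3.27-fold and 3.42-fold from low levels (controls 7.59 to 9.21 and 5.06 to 11.6). Ccl19, which guides dendritic cells and lymphocytes through CCR7, rose by 2.63-fold, from 57.8 ± 8.96 to 152 ± 50.4. The 5 that did not pass included Ccl21b, the other CCR7 ligand (log2 fold change 0.33 ± 0.31, adjusted p = 0.503), the eosinophil attractants Ccl11 (0.25 ± 0.23, adjusted p = 0.505) and Ccl24 (-1.71 ± 0.83, adjusted p = 0.176), and Ccl17 (0.76 ± 0.29, adjusted p = 0.083).

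Of the 6 CXC ligands 5 rose (83.3%, against 22.4% of all genes tested). The median log2 fold change of the 6 was 2.78, also with Cxcl2 and Cxcl3 at their bounds. Cxcl1, Cxcl5 and Cxcl2, neutrophil attractants that act on CXCR2, rose from levels near the detection limit. Cxcl1 had values of 5.06, 14.2, 10.2 and 9.97 in controls and 43.7, 70.5, 48.4 and 110.2 at the high dose. Cxcl5 had values of 1.69, 24.6, 4.09 and 10.97 and of 20.0, 48.8, 71.2 and 125, so that its groups overlapped (log2 fold change 2.75 ± 0.69, adjusted p = 0.0117). The fold change of Cxcl5 was 6.73 with all mice, 4.77 without high-dose mouse 4 and 11.9 without control mouse 2. It was 22.7 without both control mice of few fields of view. The call of Cxcl5 was lost under the series' own test, an analysis of variance with least significant differences over the 3 doses. The larger adjusted p of these 2 steps was 0.078. Cxcl2 had values of 2.53, 1.29, 1.02 and 0.997, with 0 of 4 lanes above the limit, and of 2.50, 6.50, 10.0 and 6.96, with 3 of 4 above it. The high-dose mean of Cxcl2 was 1.06-fold the mean control limit, a bound that was not itself tested. The edgeR fit of its counts gave an adjusted p of 0.0225 (0.0512 with the replicate number as a block). Its call was lost in 3 of 8 fits with 1 mouse left out. Cxcl3, of the same family, did not pass (log2 fold change 0.88 ± 0.44, adjusted p = 0.195).

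Of the 8 chemokine receptors 2 rose, a share near the 22.4% of all genes tested. Il8rb, the CXCR2 receptor of neutrophils, read 2.53, 5.18, 5.11 and 4.99 in controls, with 0 lanes above the limit, and 30.0, 48.8, 58.5 and 49.9 at the high dose. Its high-dose mean was 7.62-fold the mean control limit, and the edgeR fit of its counts gave an adjusted p of 0.000114. Ccr7, the receptor of Ccl19, read 1.29 to 5.11, with 0 control lanes above the limit, and 8.12 to 15.5 at the high dose. Its high-dose mean was 1.94-fold the mean control limit. The edgeR fit of its counts gave an adjusted p of 0.0264 (0.0635 with the replicate block). Its call was lost in 5 of 8 fits with 1 mouse left out. Ccr1, a receptor of Ccl3 and Ccl5, did not overlap between groups (14.2 to 27.6 and 37.5 to 45.2) and missed the threshold (adjusted p = 0.0794). It passed with the control and high-dose lanes alone. Ccr2, the Ccl2 receptor of monocytes, had a log2 fold change of 0.17 ± 0.42 (95% interval -0.76 to 1.10).

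**Figure D2:**
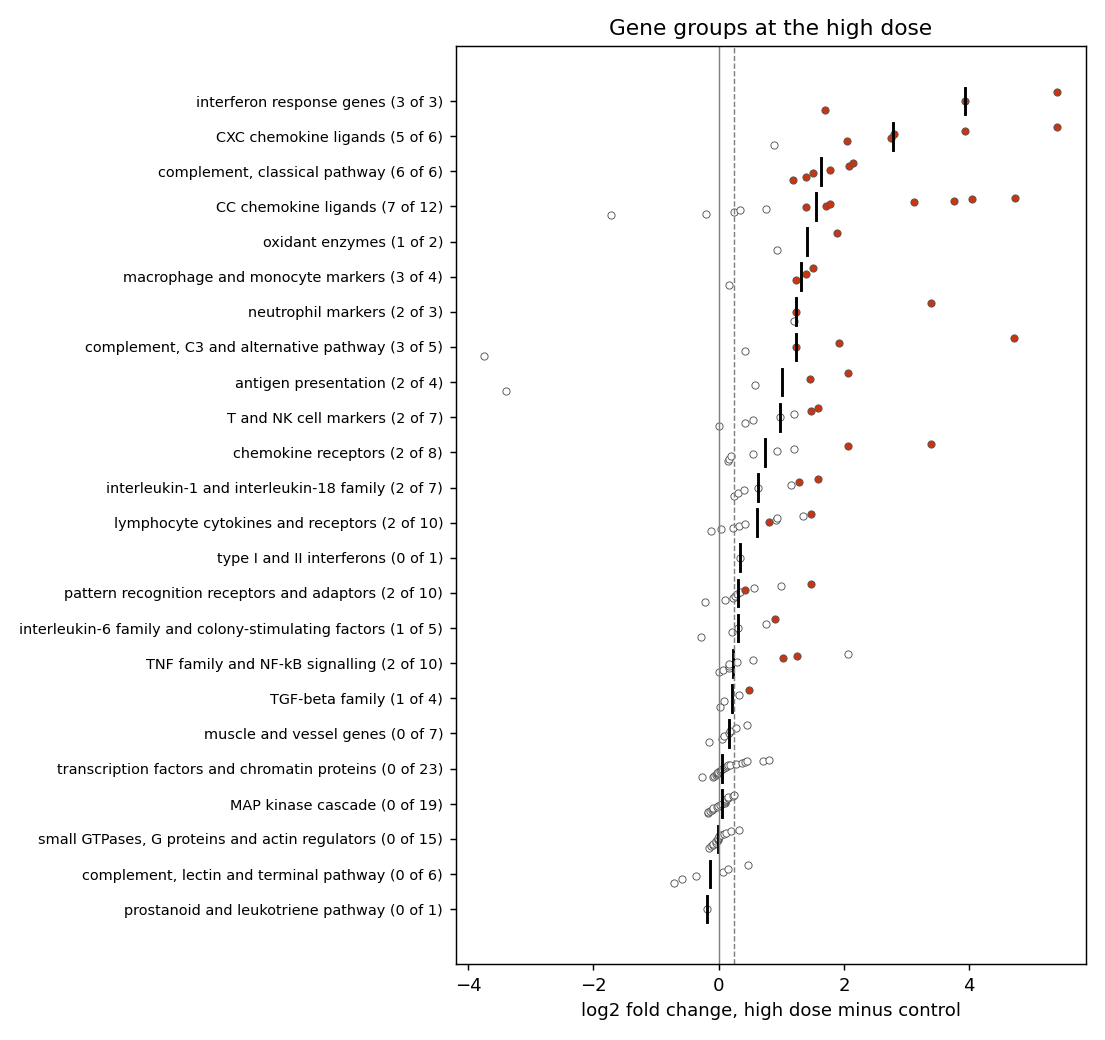
Log2 fold changes, high dose minus control, of the tested genes in each list, 1 point per gene, with the number that rose of the number tested beside each list; filled points passed the threshold, open points did not, bars are list medians and the dashed line is the median of all genes. CXC chemokine and classical complement genes lie to the right, with 5 of 6 and 6 of 6 risen, against 22.4% of all genes tested. The MAP kinase and small GTPase genes lie close to 0.

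All 6 tested genes of the classical complement pathway, which starts from C1 bound to antibody or to surfaces, rose, with a median log2 fold change of 1.64. C1s, a protease of C1, went from 1709, 2085, 4284 and 2847 to 14413, 12747, 9563 and 11577. Its log2 fold change was 2.14 ± 0.34 (adjusted p = 0.00101), and the groups did not overlap. C1r, the protease that activates C1s, went from 1059 ± 199 to 4454 ± 509 (adjusted p = 0.000337). C1qa and C1qb, which encode chains of the recognition subunit, rose by 2.83-fold and 2.63-fold. C2, whose product is part of the C3 convertase, rose by 2.26-fold, and C4a by 3.43-fold. The calls of C1qa, C1qb and C2 were lost under the series' own test. That of C1qa was also lost without both control mice of few fields of view. C4a has a near-identical copy, C4b, so which of them its probe counted was not tested.

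Of the 5 genes of C3 and the alternative pathway 3 rose (60%, against 22.4% of all genes tested). Cfb, the protease of the alternative C3 convertase, went from 46.4, 116, 53.2 and 109.7 to 1427, 1942, 2662 and 2493, a log2 fold change of 4.71 ± 0.66 (adjusted p = 0.000462). C3, the central component of the cascade, went from 5849, 9199.8, 11332 and 16824 to 32249, 40560.1, 42846 and 48423, a log2 fold change of 1.93 ± 0.34 (adjusted p = 0.00183). The C3a receptor gene C3ar1 rose by 2.34-fold, a call that was lost under the series' own test. Cd55, an inhibitor of the convertases, did not overlap between groups and did not pass (log2 fold change 0.42 ± 0.17, adjusted p = 0.111). Cfd, the protease factor D made largely by fat cells, varied widely. It read 92.0, 3.88, 758 and 2039 in controls and 2.50, 5.42, 69.4 and 138 at the high dose, a log2 fold change of -3.74 ± 1.79 (adjusted p = 0.174). Of the 6 lectin and terminal pathway genes tested, 0 rose and 0 fell, with a median of -0.15. C6 and C7, which join the membrane attack complex, had log2 fold changes of -0.72 ± 0.59 and -0.58 ± 0.44.

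Of the 7 genes of the interleukin-1 and interleukin-18 family 2 rose, a share of 28.6% against 22.4% of all genes. Il1b, the secreted pyrogen, read 10.1, 34.9, 20.5 and 24.9 in controls and 38.7, 52.0, 66.7 and 58.0 at the high dose (log2 fold change 1.27 ± 0.34, adjusted p = 0.0176, and 0.0606 without high-dose mouse 3). Il18rap, a subunit of the interleukin-18 receptor, rose by 2.99-fold, with 2 of 4 control lanes above the detection limit. Il1rn, the interleukin-1 receptor antagonist, had a log2 fold change of 1.16 ± 0.39 (adjusted p = 0.0559, and 0.0314 with the replicate block). Il1a had one of 0.62 ± 0.37 (adjusted p = 0.3).

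Of the 10 TNF family and NF-kB genes 2 rose, a share near the 22.4% of all genes: Tnfsf14 by 2.37-fold and Ltb by 2.03-fold, both ligands that signal in lymphoid tissue. For Tnfsf14, 2 of 4 control lanes lay above the detection limit. The call of Ltb was lost in 2 of 8 fits with 1 mouse left out (those that omitted control mouse 1 and high-dose mouse 3). Tnf read 3.37, 11.6, 6.14 and 3.99 in controls and 13.7, 26.0, 28.3 and 33.6 at the high dose. The groups were separate and the fold change was large. With 1 of 4 control lanes above the detection limit, that fold change rests on control values mostly under the limit. The interval was wide (log2 fold change 2.06 ± 0.72, 95% interval 0.49 to 3.63, adjusted p = 0.0606). Tnf passed in 5 alternatives, with DESeq2 (adjusted p = 0.0393), positive controls as the scale (0.0362), the control and high-dose lanes alone (0.00583), without control mouse 2 (0.047) and without high-dose mouse 1 (0.0462). Nfkb1 and Ripk1 were also separate between groups, with log2 fold changes of 0.29 ± 0.11 (adjusted p = 0.081) and 0.16 ± 0.12 (adjusted p = 0.402).

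Of the 5 genes tested of the interleukin-6 family and colony-stimulating factors 1 rose, a share of 20% against 22.4% of all genes tested. That was Csf1, the macrophage growth factor, which went from 316, 344, 389 and 403 to 490.0, 738, 734 and 757 (log2 fold change 0.91 ± 0.16, adjusted p = 0.00183). Il6 varied widely, at 2.53, 33.7, 4.09 and 9.97 in controls and 8.75, 18.4, 8.22 and 45.2 at the high dose. Its groups overlapped, and the 95% interval of -1.38 to 2.88 allowed a change in either direction (adjusted p = 0.654). Among lymphocyte cytokines and receptors 2 of 10 rose, again near the share of all genes: Il15, a survival factor of NK and memory T cells, by 1.75-fold and the interleukin-23 receptor gene Il23r by 2.77-fold. Il10, an anti-inflammatory cytokine, had a log2 fold change of 1.35 ± 0.53 (adjusted p = 0.0884).

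Of the 10 pattern recognition genes 2 rose, a share near the 22.4% of all genes. Tlr2, the receptor of bacterial lipoproteins, read 29.8 to 41.9 in controls and 87.5 to 108 at the high dose (log2 fold change 1.48 ± 0.29, adjusted p = 0.003). Ly96 read 188 to 236 and 270.0 to 314, the smallest called change (log2 fold change 0.42 ± 0.12, adjusted p = 0.0268). Ly96 lost its call in 6 of the 8 leave-one-out fits and 7 of 14 other alternatives, and its log2 fold change was -0.16 with total counts as the scale. Tlr4, the lipopolysaccharide receptor, had a log2 fold change of 0.29 ± 0.14 (95% interval -0.01 to 0.59, adjusted p = 0.162). It passed with positive controls as the scale, without control mouse 2 and without both control mice of few fields of view. Nox1, an oxidase subunit that makes superoxide, read 3.37, 2.59, 10.2 and 3.99 and then 6.25, 7.59, 21.9 and 40.6, with overlapping groups (adjusted p = 0.0493, and 0.0748 with the replicate block). For Nox1, 1 of 4 control lanes lay above the detection limit. Its call was lost in 5 of the 8 leave-one-out fits and 11 of 13 other alternatives, and its fold change was 3.71, or 2.38 without high-dose mouse 4. Nos2, the inducible nitric oxide synthase, did not overlap between groups but missed the threshold (log2 fold change 0.93 ± 0.32, adjusted p = 0.0597). It passed with limma-voom, without control mouse 4, without high-dose mouse 1 and without both control mice of few fields of view. Tgfb1, which restrains inflammation, read 247 to 294 and 314 to 399 (log2 fold change 0.48 ± 0.14, adjusted p = 0.0263, and 0.0674 with the replicate block). Tgfb1 lost its call in 6 of 8 fits with 1 mouse left out, and its log2 fold change was -0.11 with total counts.

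The intracellular signalling genes showed no called change on this scale. All 19 MAP kinase cascade genes and all 15 small GTPase and G protein genes had 95% intervals within 2-fold in either direction, as did 20 of the 23 transcription factor and chromatin genes. Their median log2 fold changes were 0.05, -0.01 and 0.06. With TMM 6, 9 and 6 of them were called lower, so their direction cannot be given apart from the scale. Of all 128 genes that did not pass, 89 had intervals within 2-fold, while 32 reached beyond 2-fold up and 11 beyond 2-fold down.

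**Figure D3:**
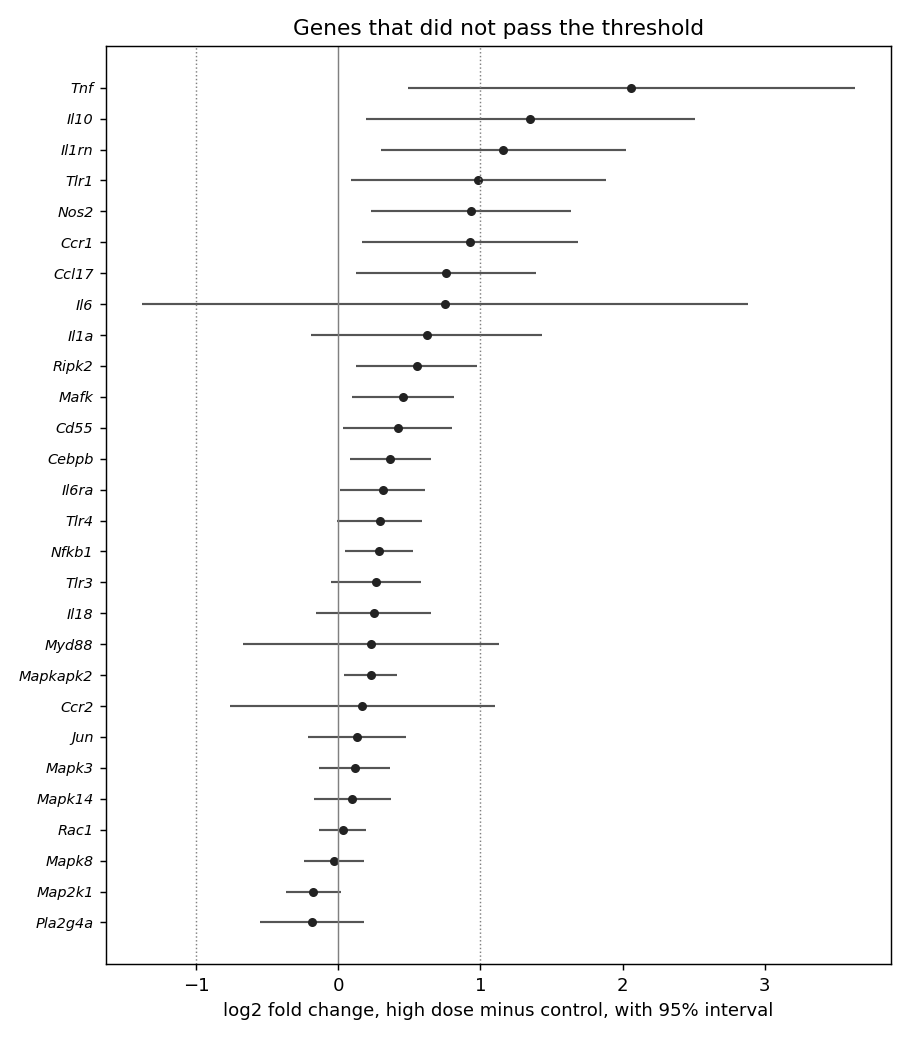
Log2 fold changes, high dose minus control, with 95% intervals, of selected genes that did not pass the threshold; dotted lines mark 2-fold. Tnf and Il6 have wide intervals, 0.49 to 3.63 and -1.38 to 2.88, and Rac1 and Mapk8 narrow ones close to 0.

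Some leukocyte markers rose as well, and others did not pass. Of the 4 macrophage and monocyte markers 3 rose (75%, against 22.4% of all genes tested): C1qa, C1qb and C3ar1. The calls of these 3 were lost under the series' own test, and Ccr2 had an adjusted p of 0.841. The 4 markers summed to 1470 to 2077 in controls and 4034 to 5058 at the high dose. The 3 genes listed as neutrophil markers summed to 77.6 to 125 and 196 to 357. The 2 that rose (66.7%, against 22.4% of all genes tested) were Il8rb and Itgb2, an integrin gene that other leukocytes also express. Itgb2 made up most of these sums (72.5 to 117 and 162 to 305), and Il8ra did not pass (adjusted p = 0.0842). The 8 T and NK cell markers on the panel, with Ifng, which was not tested, summed to 54.8 to 97.1 and 114 to 137. Of the 7 tested 2 rose, Il18rap and Il23r, a share of 28.6%, near the 22.4% of all genes tested. Several of these genes are counted in the lists above as well. In whole oviduct more cells of a type and more RNA per cell cannot be told apart, and the part of these cells in the chemokine and complement results was not tested. Cd40, a co-stimulatory receptor of antigen-presenting cells, rose from 19.9 to 22.0 in controls to 51.2 to 62.1. The class II genes varied instead: H2-Ea read 37.1, 1334, 5.11 and 43.9 in controls and 57.5, 33.6, 38.4 and 4.64 at the high dose, and H2-Eb1 read 82.5 to 4051 among high-dose mice. Of the 7 muscle and vessel genes 0 rose and 0 fell.

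Mouse 1 was low in both groups. Over the 37 called genes control mouse 1 was the lowest control in 24, and high-dose mouse 1 was the lowest of its group in 28, and mouse 3 was the highest in 15 and mouse 4 in 13. The median log2 ratio to the control geometric mean was 1.29 in mouse 1, 1.67 in mouse 2, 1.98 in mouse 3 and 1.96 in mouse 4, against -0.45 in control mouse 1 and 0.08 to 0.14 in the other controls. Against the same-numbered control the median was 1.89 for number 1 and at most 1.73 for numbers 2 to 4, so mouse 1 was not the lowest on that measure. The median coefficient of variation of the called genes was 31.2% in controls and 25.6% at the high dose. The low-dose mean lay between the control and high-dose means for 36 of the 37. As the 37 were picked for being higher at the high dose in the same fit, that count is no test of a graded response.

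**Figure D4:**
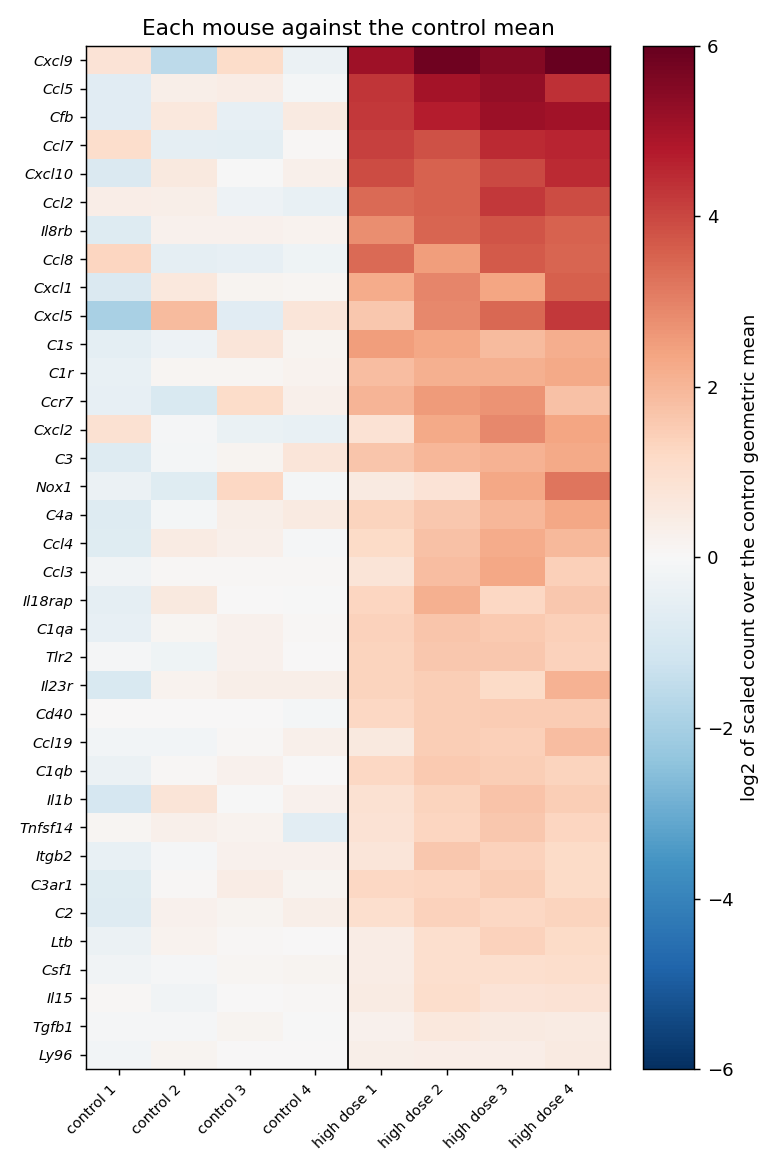
Log2 of each mouse's scaled count over the control geometric mean for 36 called genes (rows), in 4 control and 4 high-dose mice (columns). High-dose mouse 1 is paler than mice 3 and 4, with medians of 1.29 against 1.98 and 1.96, and control mouse 1, at -0.45, is lower than the other controls.

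**Figure D5:**
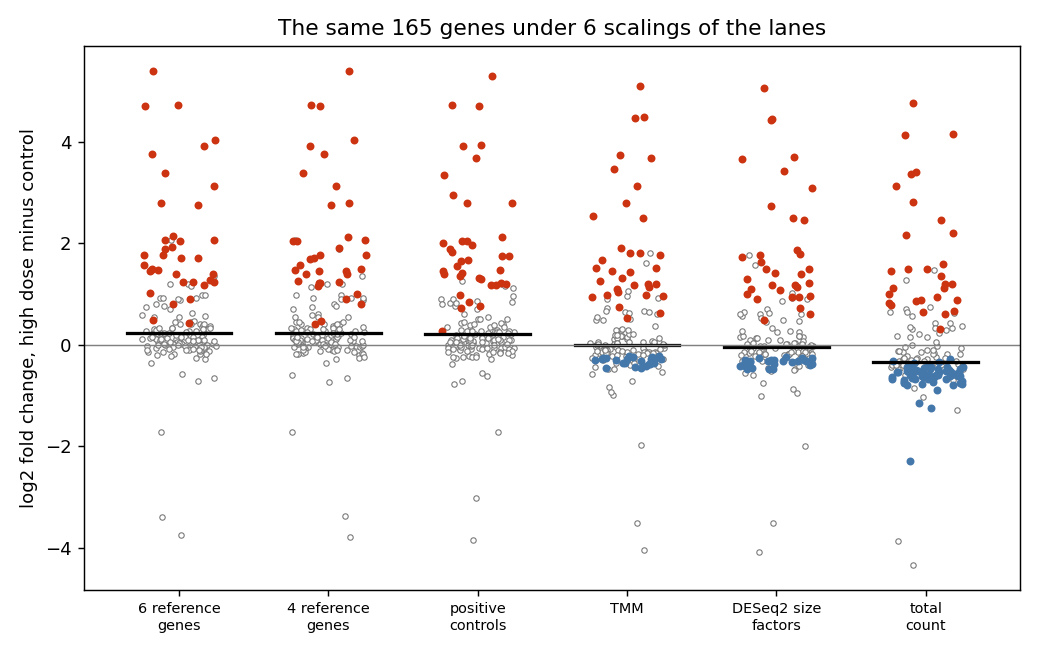
Log2 fold changes, high dose minus control, of the 165 tested genes under each scale, with red points called higher, blue called lower, open points not past the threshold and bars at the medians. The whole set shifts down from a median of 0.24 with reference genes to -0.34 with total counts.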

How the data were processed

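Oviduct RNA of 12 mice was counted on an nCounter panel, in which single fluorescent barcodes are counted without amplification. The authors deposited raw barcode counts, which were treated by the rules for expected counts since each column includes a decimal value of binding density. All 2388 probe values are whole. What the instrument software did before is not stated in the labels. RefSeq names (GRCm38.p6) matched 179 of the 185 endogenous accessions; symbols are those of the deposited table. Il8rb is now Cxcr2.

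The scale of a lane was the geometric mean of its reference genes, which are Tubb5, Pgk1, Hprt1, Gusb, Gapdh and Cltc. The detection limit of a lane was set 2 SD over the mean of 8 negative probes, and genes above it in 4 or more of 12 lanes were tested. edgeR 4.0.16 (R 4.3.3) fitted all 12 lanes by quasi-likelihood, with two-sided p-values adjusted by Benjamini-Hochberg over 165 genes. Where 0 control lanes passed the limit, a bound is given, the high-dose mean over the mean control limit. The p-values of these genes are those of the fit of their counts, not of the bound. Alternatives were other scales, filters, DESeq2 1.42.0, limma-voom (limma 3.58.1), each mouse left out and the replicate number as a block. Groups and numbers come from the titles. Same-numbered control and high-dose mice deviated together (r from 0.11 to 0.39 in 4 of 4 pairs), which met the criterion for pairs set here, r over 0.1. Most high-dose mice correlated better with a control of another number. These were mouse 1 with control 2 (0.28 against 0.22), mouse 3 with control 4 (0.15 against 0.11) and mouse 4 with control 3 (0.43 against 0.39). The titles do not say what the numbers mark. The calls, folds and SEs come from the fit without the block, and blocked values are given where they change a call.

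Genes were named from a rule that takes all genes past the threshold, the 3 of smallest p that did not pass in each list, the 5 lowest fold changes, genes with separate groups and a fixed set of cytokines; some of these genes are not reported here. The genes and lists were chosen with earlier results of these data known. Each sample is 1 mouse, per the labels.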

Additional observations from a re-analysis of the deposited data

Results flagged for a closer look

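In 14 of 194 groups of 4 values 1 mouse stood far from the other 3, where 9.7 are expected by chance at 1 in 20. Control mouse 1 was low for Il8rb (2.53, others 4.99 to 5.18), C1r (763, others 1135 to 1197) and Ccl3 (7.59, others 8.98 to 9.21), and high for Ccl8 (165, others 47.9 to 56.9) and Tlr1 (193, others 72.6 to 78.8). Control mouse 2 was high for H2-Ea (1334, others 5.11 to 43.9) and Ifng (3.88, others 0.844 to 1.02), and its endogenous total was low (98258, others 121424 to 126058). Control mouse 3 was high for Tgfb1 (294, others 247 to 253) and Il6ra (492, others 421 to 429.7). Control mouse 4 was low for Il12b (0.997, others 5.06 to 5.18) and had a binding density of 0.31 (others 0.24 to 0.25). High-dose mouse 1 was low for Csf1 (490.0, others 734 to 757), and high-dose mouse 4 was high for Csf3 (249, others 142 to 154). The flagged values of Il8rb, Ifng and Il12b are at or near background. Control lanes above the detection limit numbered 0 for Il8rb, 0 for Ifng and 1 for Il12b.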

How the results depend on the processing

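Of the 37 genes called higher, 22 were called in every one of the 22 alternatives that tested them and 30 in every fit with 1 mouse left out. The number higher ranged from 30 (without high-dose mouse 3) to 45 (without high-dose mouse 1) with 1 mouse left out, and was 34 with the replicate block, which changed the calls of Ccr7, Cxcl2, Nox1, Tgfb1 and Il1rn and no other. The series' own test took an analysis of variance and least significant differences on log2(scaled count + 1) over the 3 doses. A gene had to pass both after Benjamini-Hochberg adjustment, and 24 were called higher. It lost the calls of Cxcl5, Ccr7, Cxcl2, Nox1, C1qa, C1qb, Il1b, Itgb2, C3ar1, C2, Ltb, Tgfb1 and Ly96. The number lower, 0 on the reference-gene scale, was 23 with TMM, 25 with DESeq2 size factors, 32 with DESeq2 and 62 with total counts. Genes with every high-dose mouse below every control numbered 0 with positive controls, 0 with 4 reference genes, 26 with TMM, 24 with DESeq2 size factors and 58 with total counts, and genes with every one above numbered 27 with total counts. Named genes whose sign turned with the threshold passed in either fit were these. With total counts the log2 fold change turned to -0.11 for Tgfb1, -0.16 for Ly96, -0.29 for Nfkb1, -0.31 for Tlr3, -0.36 for Mapkapk2, -0.52 for Tgfb2, -0.55 for Tgfbr1 and -0.43 for Ripk1. That of Tgfbr1 was -0.23 with TMM, -0.26 with DESeq2 size factors and -0.26 with DESeq2. A further 63 values of 30 named genes changed sign with the threshold passed in neither fit. These scales differ in what they hold equal, and the called genes enter the total. Without both control mice of few fields of view 37 rose, with 8 calls lost and 8 gained. The calls lost with 1 mouse left out were those of Nox1, Tgfb1, Ly96, Ccr7, Cxcl2, Ltb and Il1b. Of the called genes 10 had under 4 control lanes above the negative controls. These were Il8rb, Ccr7 and Cxcl2 with 0, Nox1 with 1, and Cxcl9, Ccl7, Cxcl5, Il18rap and Tnfsf14 with 2. The last was Il23r, with 3.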
